A study of Homo sapiens with 8 samples.

Results

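MS8815 was compared with its DMSO vehicle in 4 of the 8 libraries of the series, 2 for each group, over all 18744 genes of the table that holds them. The libraries were chosen by their column labels, so no measured value entered the choice. All were made from SUDHL6, an established human cell line from a diffuse large B-cell lymphoma of the germinal-centre type. Per the labels, cells were exposed for 18 h to DMSO or to 2.5 µM of MS8815, a PROTAC directed at EZH2. The other groups of the series were EPZ-6438, which inhibits the enzymatic domain of EZH2, and the analog control MS8815N, which is no PROTAC, each at 2.5 µM and 18 h. Whether the duplicates were grown separately is not given in the labels; p-values below therefore measure library-to-library spread, which can be purely technical.

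EZH2 is the catalytic subunit of polycomb repressive complex 2 (PRC2), which places a repressive methyl mark on histone H3 and keeps developmental and differentiation genes silent. In germinal-centre B cells EZH2 is highly expressed and restrains cell-cycle inhibitors and plasma-cell genes. A PROTAC joins a ligand of its target to a ligand of a ubiquitin ligase, and the ubiquitinated target is then destroyed by the proteasome. A degrader acts on protein, so the EZH2 transcript does not report on the degradation itself.

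The MS8815 libraries stood apart from the DMSO libraries over the whole transcriptome. Their estimated depth, in M reads (M, mega), was 12.9 and 14.6, and that of the DMSO libraries was 30.9 and 31.6. Limma called 8782 genes changed at an adjusted p under 0.05 (46.9% of the genes tested), of which 4589 were higher (24.5%) and 4193 lower (22.4%) with MS8815. Changes of at least 2-fold were mostly rises, with 3604 genes higher (19.2%) and 455 lower (2.43%). Direction depended on level. At a mean normalised read count from 10 to under 100, 39.7% of genes were called higher and 2.96% lower. From 1000 to under 10000, 13.1% were called higher and 58.0% lower. From 10000 upward these shares were 16.3% and 69.6%. The shares over all genes are thus a poor yardstick for lists of mostly low or mostly abundant genes. For 73.7% of genes both MS8815 libraries lay on the same side of both DMSO libraries. Leaving out DMSO replicate 1 left 3657 called genes, and leaving out DMSO replicate 2 left 3583. Fold changes are differences of log2(normalised read count + 1) with their standard error (SE).

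Several kinds of transcript outside B-cell biology filled part of the MS8815 libraries. The mitochondrial ribosomal RNAs MT-RNR1 and MT-RNR2 held 0.367% and 0.370% of the DMSO libraries and 6.01% and 6.28% of the MS8815 libraries. The ribosomal RNA gene RNA5-8S5 and 3 clone-named genes (CH507-513H4.3, CH507-513H4.4 and CH507-513H4.6) together held 0.338% and 0.303% with DMSO and 6.48% and 3.42% with MS8815, so that the 2 MS8815 libraries also differed from each other. RN7SL1, the RNA of the signal recognition particle, held 0.0838% and 0.0792% with DMSO and 1.36% and 1.42% with MS8815. Genes of adherent cells rose as well. Of 9 tested keratin genes 8 were higher and none lower (median log2 fold change 4.05), of 24 cell adhesion and junction genes 20 were higher and 1 lower (3.73), and of 22 extracellular matrix genes 21 were higher and none lower (3.94). The median over all genes lay at 0 to 2 decimals. KRT8, a keratin of simple epithelia, stood at 199 and 192 with DMSO and 3275 and 3247 with MS8815. In the list of luminal epithelial markers 10 of 12 genes in the table were higher, and the summed normalised read count was 614.8 and 579.2 with DMSO and 9856 and 9658 with MS8815. Members that define epithelia differed. EPCAM, an epithelial surface protein, was called higher at 8.99 and 5.55 with DMSO and 91.8 and 46.3 with MS8815 (3.03 ± 0.5). CDH1, the epithelial cadherin, stood at 6.23 and 1.09 with DMSO and 1.7 and 4.88 with MS8815 and ESRP1 at 2.5 and 6.12 with DMSO and 8.38 and 7.49 with MS8815, neither called, and GRHL2 was not among the genes of the table. The part that these transcripts have in the results below was not tested, and neither was a difference in library kit, since the labels name 2 kits without tying them to libraries.

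The fold changes of genes in the upper 50% by mean level fell into 2 groups. That mean is over all 4 libraries, so a gene low with DMSO could enter through its MS8815 counts alone, as HSPA6 did. The filter thus favours large rises among genes low with DMSO, and how many genes entered in this way was not counted. Among the 9372 genes in the upper 50% by mean level, 7780 (83.0%) lay between -1 and 0.5, and the fullest bin, from -0.5 to -0.25, held 2201. Counts per bin of 0.25 fell to 24 genes between 3 and 3.25 and then rose to 156 between 4 and 4.25. The band from 3.5 to 4.5 held 371 genes (3.96%) with a median of 4.02, and 35 genes lay above it. The keratins, the matrix genes and the 7S and small nuclear RNAs lay mostly in that band, with 8 of 9, 16 of 22 and 13 of 22 members, and of the adhesion genes 12 of 24 did. These counts take members of any level, unlike the 3.96%. Among members in the upper 50% by level, the counts for these 4 lists were 6 of 7, 13 of 15, 7 of 10 and 9 of 13. The number of members of any level in this band, called the upper band below, is given beside lists with many rises. The share of all 18744 genes in it was not counted, so small counts below cannot be read as many or few. By another cut, 2162 genes of any level were called higher at least 8-fold.

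**Figure D1:**
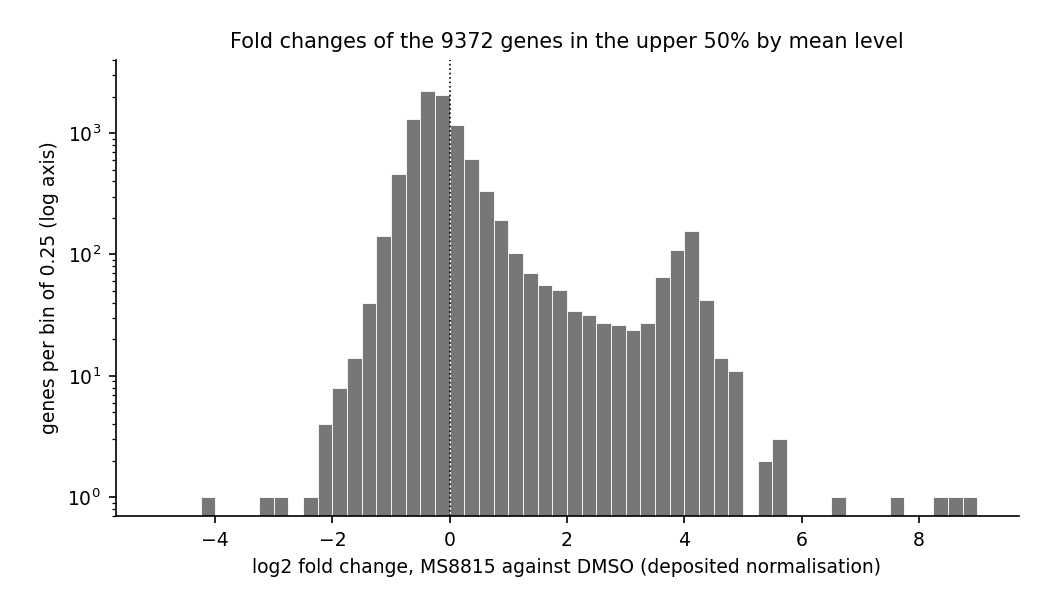
Number of genes (log axis) per 0.25-wide bin of log2 fold change, MS8815 against DMSO, for the 9372 genes in the upper 50% by mean level over all 4 libraries. The main hump has its fullest bin from -0.5 to -0.25 with 2201 genes, and a second hump has 156 genes between 4 and 4.25.

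Direction also depended on the scale. The deposited normalisation was used throughout, and 3 other scalings were set beside it. In 1 of them the MS8815 libraries were scaled so that 46 genes of the pan-B, B-cell receptor and germinal-centre lists had a median change of 0. This multiplied every MS8815 count by the same factor, 0.90 on the log2 scale (as deposited these genes had an SD of 1.32 and a range of -2.22 to 4.10). Counts of 0 stayed at 0, and since 1 is added before the log, low counts moved by less than 0.90. Of the changed genes 52.3% were higher as deposited, 41.3% after quantile normalisation, 68.6% when scaled to the upper 50% of genes, 31.3% with the lower 50% of genes removed and 98.4% when scaled to B-cell genes. The median over all genes was -0.20 after quantile normalisation, 0.18 on the upper 50% scale and 0.88 on the B-cell scale. Except at low counts, a fall of less than 0.90 in the deposited values is thus a rise on the B-cell scale. The B-cell-scaled value is given below for called genes and printed list medians whose direction turned. For genes not called as deposited it is mostly not given, so its absence there does not mean that the direction held.

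**Figure D2:**
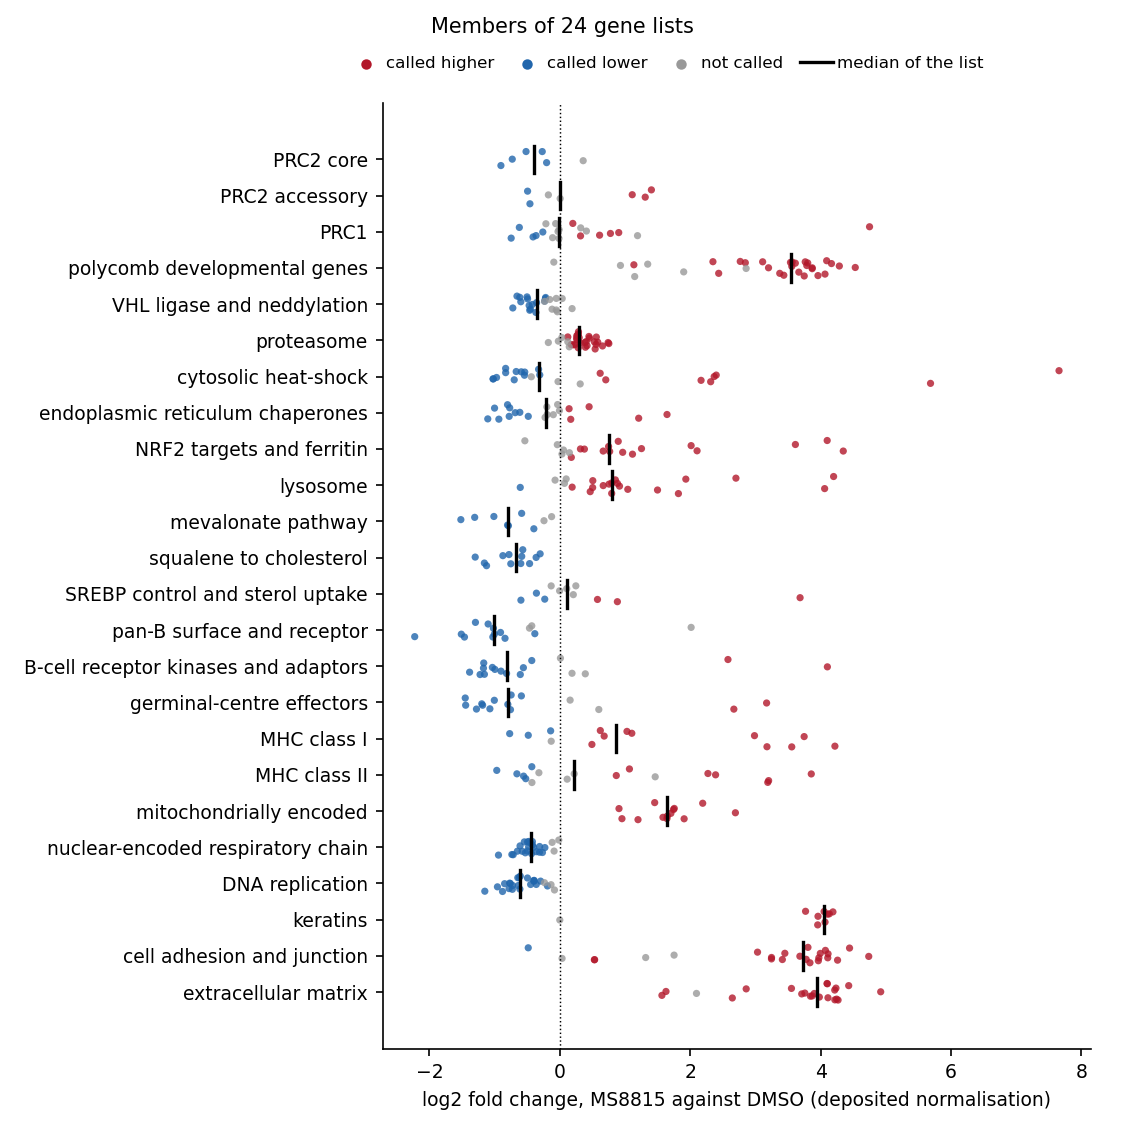
Log2 fold change of every tested member of 24 gene lists (points), MS8815 against DMSO in the deposited normalisation, with the list's median as a black bar. Keratin, adhesion and matrix genes centre near 4, proteasome genes lie just above 0, and the cholesterol synthesis, B-cell receptor and germinal-centre medians lie below 0 here but above 0 when scaled to B-cell genes.

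The PRC2 core transcripts were lower by small amounts in the deposited scaling, and 3 accessory subunits were higher. EZH2 (GRCh38 chromosome 7, 148807383 to 148884321) stood at 2819.8 and 2993 with DMSO and 2479 and 2345 with MS8815, a change of -0.27 ± 0.06 (limma adjusted p = 0.0123). It was not called after quantile normalisation (-0.041), on the upper 50% scale or without either DMSO library, and it rose by 0.64 on the B-cell scale. Of the 6 core genes 5 fell and none rose (median -0.39, and 0.51 on the B-cell scale). Without either DMSO library 2 core genes were called lower. EED, the subunit that reads the methyl mark, had the largest fall of the core, 288 and 302 with DMSO and 175 and 141 with MS8815 and -0.9 ± 0.17, and was near 0 and not called on the B-cell scale. SUZ12, the scaffold, was at -0.2 ± 0.056 (0.7 on the B-cell scale, and near 0 after quantile normalisation). RBBP4 and RBBP7, histone chaperones shared with other chromatin complexes, were at -0.73 ± 0.041 and -0.52 ± 0.035 (0.18 and 0.39 on the B-cell scale). EZH1, the other methyltransferase of the family, was at 0.36 ± 0.12 and not called (adjusted p = 0.0548).

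Among accessory subunits, which steer PRC2 to chromatin, the groups separated in both directions. JARID2 stood at 217 and 243 with DMSO and 557 and 585 with MS8815 (1.31 ± 0.12, adjusted p = 0.000476) and PHF1, a polycomb-like protein, at 308 and 319.8 with DMSO and 806 and 861 with MS8815 (1.41 ± 0.099, adjusted p = 0.000203). For these genes both MS8815 libraries were at least 2-fold above both DMSO libraries. C17orf96 (EPOP) was at 1.11 ± 0.19 but lost its call after quantile normalisation. MTF2 and AEBP2 fell by 0.46 and 0.49 in the deposited scaling and rose by 0.45 and 0.41 on the B-cell scale. In the polycomb complex that ubiquitinates histone H2A (PRC1), 6 of 20 genes were higher and 5 lower (median -0.01, but 0.89 on the B-cell scale, and 0.031 without MS8815 replicate 2). Without either DMSO library 2 of these were called higher and none lower, and of the accessory subunits also 2 and none. PCGF2 had the largest change of that list, at 6.7 and 16.8 with DMSO and 341 and 290.2 with MS8815 (4.75 ± 0.44, adjusted p = 0.000139). BMI1 was at 0.9 ± 0.11, RYBP at 0.78 ± 0.12 and KDM2B at -0.75 ± 0.11 (KDM2B 0.16 on the B-cell scale).

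Developmental regulators that polycomb complexes silence in many cell types were higher. Of 32 such genes tested 26 rose and none fell (median 3.55, and between 2.41 and 4.44 over the scalings), and 16 of 32 lay in the upper band. Without DMSO replicate 1 the count of rises was 9 and without DMSO replicate 2 it was 10. SOX9 stood at 35.5 and 39.5 with DMSO and 496 and 444 with MS8815, GATA6 at 14.6 and 11.5 with DMSO and 294 and 251 with MS8815, GATA2 at 9.6 and 5.85 with DMSO and 133 and 157 with MS8815 and IRX3 at 9.21 and 7.12 with DMSO and 122 and 121 with MS8815. All 4 were low in both DMSO libraries and more than 10-fold higher in both MS8815 libraries, at 3.61 ± 0.18, 4.29 ± 0.27, 4.09 ± 0.37 and 3.75 ± 0.34. Only 1 of the 32 genes was among the better-expressed 50% of all genes, and their summed normalised read count was 248.5 and 247.2 with DMSO and 2448 and 2407 with MS8815. With EPZ-6438 and with MS8815N no member was called against DMSO, but 22 and 23 of the 32 genes were in those tables, so the medians there, 0.10 and 0.23, are over fewer members. Of all genes 0.0328% and 0.533% were called with these compounds, so the lack of calls is not particular to this list.

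The cell-cycle inhibitors, among them known EZH2 targets, did not move together. CDKN1A, which encodes p21, stood at 104 and 94.2 with DMSO and 1447 and 1210.5 with MS8815 (3.73 ± 0.14, adjusted p = 4.81e-05). CDKN1C was at 3.77 ± 0.31, CDKN2B at 1.24 ± 0.21 and CDKN2D at 1.03 ± 0.15. CDKN2A, the locus of p16 and ARF, fell from 3074 and 3148 with DMSO to 1677 and 1609.7 with MS8815 (-0.92 ± 0.055, adjusted p = 9.58e-05) and was at -0.016 and not called on the B-cell scale. CDKN2C was at -0.4 ± 0.045 (0.51 on the B-cell scale). In all, 4 of 7 genes were higher and 2 lower, with 2 in the upper band. Without either DMSO library 2 were called higher and 2 lower. PRDM1, the plasma-cell regulator that EZH2 restrains in germinal-centre cells, stood at 12.3 and 15.5 with DMSO and 63.5 and 67 with MS8815 (2.16 ± 0.34, adjusted p = 0.00346) and lost its call after quantile normalisation. SDC1, a plasma-cell surface marker that epithelia also express, was at 3.39 ± 0.18, whereas the plasma-cell genes JCHAIN, MZB1 and DERL3 were at -1.39 ± 0.045, -1.46 ± 0.047 and -1.32 ± 0.31 (-0.49, -0.56 and -0.43 on the B-cell scale).

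Subunits of the proteasome were higher as a group, by small amounts. Of 32 genes of the core particle and its regulatory cap, 27 rose and none fell (median 0.29, and 0.61 after quantile normalisation, 0.48 on the upper 50% scale and 1.20 on the B-cell scale). The groups did not overlap for 31 of the 32 genes, as for 73.7% of all genes, and none lay in the upper band. PSMC4, an ATPase of the cap, stood at 3436 and 3378 with DMSO and 5646 and 5840.4 with MS8815 (0.75 ± 0.044, adjusted p = 8.62e-05), and PSMB4, a core subunit, at 4530.1 and 4787 with DMSO and 7832 and 7741 with MS8815 (0.74 ± 0.044, adjusted p = 8.02e-05). PSMD13 and PSMD2, non-ATPase subunits of the cap, were at 0.66 ± 0.045 and 0.56 ± 0.034. For each of these 4 genes both MS8815 libraries were above both DMSO libraries. Without DMSO replicate 1 the list had 16 genes higher and without DMSO replicate 2 it had 18, with none lower in either case.

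On the ligase side of the degradation route genes were lower as deposited and higher on the B-cell scale. Among all genes at a mean level from 1000 to under 10000, 58.0% were called lower, and the list was not matched for level. Of 23 genes of the VHL ubiquitin ligase, its cullin and the neddylation machinery that activates it, 15 fell and none rose (median -0.36, but 0.55 on the B-cell scale). Without DMSO replicate 1 the falls numbered 6 and without DMSO replicate 2 they numbered 7. VHL, the substrate receptor, stood at 1089 and 1067 with DMSO and 971 and 1017 with MS8815 and was not called (adjusted p = 0.24). CUL2, its cullin scaffold, was at -0.49 ± 0.056, and CAND1, which exchanges substrate receptors on cullins, at -0.72 ± 0.05 (0.41 and 0.18 on the B-cell scale). Of 5 genes of the immunoproteasome, the interferon-induced form, and its activator 2 were higher and 1 lower. The catalytic subunit PSMB9 stood at 26 and 31.3 with DMSO and 251 and 216 with MS8815 (2.98 ± 0.24) and PSMB8, also catalytic, at 181 and 217 with DMSO and 499 and 492 with MS8815 (1.32 ± 0.14). PSMB10, the other catalytic subunit, was not called, at 791 and 859 with DMSO and 639 and 751 with MS8815 (-0.25 ± 0.11, adjusted p = 0.118), and 0.65 on the B-cell scale. PSME2, a subunit of the activator, was at -0.33 ± 0.075 (0.58 on the B-cell scale) and lost its call without either DMSO library.

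Of 23 heat-shock and co-chaperone genes 8 were higher and 12 lower as deposited, and on the B-cell scale 18 were higher and 2 lower. HSPA6, HSPA1A and HSPA1B, HSP70 genes induced by stress, were among those that rose. HSF1 and related factors activate these genes through the heat-shock element, alternating copies of GAA and TTC spaced by 2 bases. The element was searched for as GAANNTTC or TTCNNGAA on both strands, in the 250 bases upstream of the start site, in RefSeq promoters of GRCh38.p14. It was found in 11.6% of 35116 promoters, and its 3-unit form, with another GAA or TTC in alternation after 2 more bases, in 0.441%. Of the 24 listed genes 12 had a promoter in the reference, 8 of these held the shorter form and 3 the 3-unit form. The stretches with the matches nearest the start site (in capitals, with 20 bases on each side or up to the start site) are shown for genes that rose and genes that fell.
HSPA6, rose (chr1:161524446-161524498, plus strand): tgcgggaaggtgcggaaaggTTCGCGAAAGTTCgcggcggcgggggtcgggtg
HSPA1A, rose (chr6:31815417-31815464, plus strand): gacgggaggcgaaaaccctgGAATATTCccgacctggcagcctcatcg
HSPB1, rose (chr7:76302471-76302518, plus strand): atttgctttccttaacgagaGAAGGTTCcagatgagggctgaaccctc
HSPB8, rose (chr12:119178823-119178870, plus strand): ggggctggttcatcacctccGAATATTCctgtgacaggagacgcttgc
HSPA8, fell as deposited (chr11:123062159-123062211, minus strand): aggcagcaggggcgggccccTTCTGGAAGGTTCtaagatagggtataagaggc
CHORDC1, fell as deposited (chr11:90223050-90223129, minus strand): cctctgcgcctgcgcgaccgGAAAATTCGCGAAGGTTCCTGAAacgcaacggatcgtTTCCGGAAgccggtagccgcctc
DNAJA1, fell as deposited (chr9:33025055-33025102, plus strand): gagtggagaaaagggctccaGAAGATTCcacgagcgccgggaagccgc
The 3-unit form stands in HSPA6, which rose, and in HSPA8 and CHORDC1, which fell as deposited. On the B-cell scale HSPA8 and CHORDC1 were at 0.075 and 0.24. Of the searched genes without a match BAG3 was at 2.31 as deposited, and HSPA4, HSPH1 and HSPE1 were at -0.59, -1.02 and -0.54. In the deposited scaling, genes with a match thus stood on both sides of 0, and so did genes without.

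HSPA6, an HSP70 that is nearly silent without stress (chromosome 1, 161524540 to 161526910), stood at 3.29 and 3.24 with DMSO and 858 and 862 with MS8815 (7.66 ± 0.25, adjusted p = 9.62e-06). This was among the largest rises of called genes in the upper 50% whose groups did not overlap and that had no library at 0. Both MS8815 libraries were far above both DMSO libraries. The highest value in the small nuclear and 7S RNA list was larger, at 8.61. HSPA1A stood at 15 and 33.4 with DMSO and 1135 and 1284 with MS8815 (5.69 ± 0.36, adjusted p = 2.61e-05). HSPA1B stood at 2173 and 2276 with DMSO and 11985 and 11498 with MS8815 (2.4 ± 0.047, adjusted p = 4.41e-06). HSPA1A and HSPA1B are nearly identical copies, so the split of reads between them is uncertain. BAG3, a co-chaperone of HSP70 in autophagy, stood at 269 and 267 with DMSO and 1312 and 1362 with MS8815 (2.31 ± 0.089), and the small heat-shock protein gene HSPB1 at 498 and 499 with DMSO and 2148 and 2343 with MS8815 (2.17 ± 0.078). DNAJB1, an HSP40 partner of HSP70, moved less, at 0.71 ± 0.046. None of the 23 tested genes lay in the upper band: HSPA6 and HSPA1A were above it and the other genes below.

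Several abundant chaperones were lower with MS8815 as deposited. HSPA8, the constitutive HSP70, stood at 49225 and 49247 with DMSO and 27639 and 27766 with MS8815 (-0.83 ± 0.021, adjusted p = 1.36e-05) and was at 0.075 on the B-cell scale. HSPH1, an HSP70 exchange factor, was at -1.02 ± 0.032, and FKBP4, an HSP90 co-chaperone, at -1.02 ± 0.037. Both were also lower on the B-cell scale, at -0.12 and -0.11. HSPD1, the mitochondrial HSP60, was at -0.97 ± 0.03 and not called on the B-cell scale (-0.065). DNAJA1 and CHORDC1 were at -0.7 ± 0.034 and -0.67 ± 0.053 (0.21 and 0.24 on the B-cell scale). HSP90AB1 was at -0.31 ± 0.025 (0.6 on the B-cell scale), and HSP90AA1 was not called at -0.026 ± 0.021. The list's median was -0.32, and 0.58 on the B-cell scale.

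**Figure D3:**
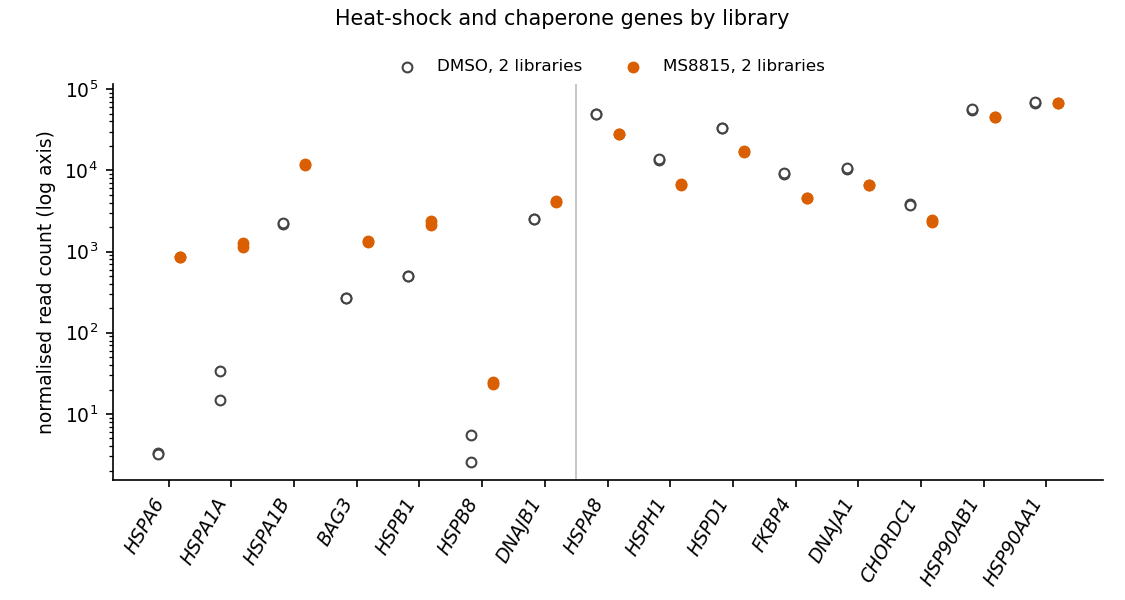
Normalised read count (log axis) of heat-shock and chaperone genes in each library, with 2 DMSO libraries as open and 2 MS8815 libraries as filled points. The genes left of the line, drawn there because they rose, are higher in both MS8815 libraries (HSPA6 at 858 and 862 against 3.29 and 3.24), and 7 of the 8 genes right of it are lower in this scaling, by at most 1.02 in log2, with HSP90AA1 not called.

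Endoplasmic reticulum chaperones moved in both directions. Of 20 genes 9 fell and 5 rose (median -0.21, and 0.69 on the B-cell scale). Without either DMSO library 1 was called higher, and without either MS8815 library 3 were. HSPA5, the HSP70 of this compartment, stood at 24024 and 24447 with DMSO and 12584 and 12787 with MS8815 (-0.93 ± 0.028, adjusted p = 1.39e-05) and was at -0.029 and not called on the B-cell scale. PDIA6, a disulfide isomerase, was at -0.68 ± 0.035 (0.22 on the B-cell scale), and HSP90B1 was at 0.17 ± 0.039. ERN1, the sensor IRE1, stood at 101 and 99.6 with DMSO and 295 and 337 with MS8815 (1.65 ± 0.16). In the integrated stress response, a shared response to amino-acid, heme and protein-folding stress, 12 of 23 genes were higher, 1 of the list in the upper band, and 4 lower (median 0.32, and -0.04 with the lower 50% of genes removed). Without DMSO replicate 1 these were 8 and 0, without DMSO replicate 2 they were 8 and 1, and without MS8815 replicate 2 they were 12 and 2. PPP1R15A, which ends the response by dephosphorylating eIF2, stood at 513 and 567 with DMSO and 2151 and 2145 with MS8815 (1.99 ± 0.081). ATF3 was at 5.53 ± 0.33, above the upper band, DDIT4 at 1.7 ± 0.072, CEBPB at 1.37 ± 0.082 and DDIT3 (CHOP) at 0.71 ± 0.099. The transcript of ATF4, the central factor, was not called at -0.089 ± 0.039, and neither was its target ASNS at -0.11 ± 0.1.

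Genes of the oxidative stress factor NRF2 and the ferritin chains rose. Of 20 genes 15 were higher and none lower (median 0.76, and 1.0 after quantile normalisation), with 3 in the upper band. SQSTM1, the autophagy receptor p62 (chromosome 5, 179806398 to 179838078), stood at 3266 and 3113 with DMSO and 13014 and 12765 with MS8815 (2.01 ± 0.042, adjusted p = 4.41e-06). The ferritin light chain gene FTL stood at 27372 and 28418 with DMSO and 66442 and 66554 with MS8815 (1.25 ± 0.026, adjusted p = 6.28e-06), and the heavy chain gene FTH1 at 15169 and 15712 with DMSO and 30355 and 29925 with MS8815 (0.97 ± 0.029). In each case both MS8815 libraries were above both DMSO libraries, and the replicates differed little. The heme oxygenase gene HMOX1 stood at 70.5 and 64.3 with DMSO and 923 and 756 with MS8815 (3.61 ± 0.16), sulfiredoxin SRXN1 was at 2.11 ± 0.067 and the quinone reductase NQO1 at 1.12 ± 0.057.

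Lysosomal genes were higher too. Of 22 genes 18 rose and 1 fell (median 0.80, and 0.81 after quantile normalisation), with 2 in the upper band. CTSD, the protease cathepsin D (chromosome 11, 1752752 to 1764573), stood at 2314 and 2245 with DMSO and 15017 and 14659 with MS8815 (2.7 ± 0.041, adjusted p = 2.49e-06), and PSAP, the precursor of the saposins that help degrade sphingolipids, at 5353 and 5626 with DMSO and 19662 and 19095 with MS8815 (1.82 ± 0.039, adjusted p = 4.54e-06). CTSB and CTSL, cysteine cathepsins, were at 4.06 ± 0.094 and 4.2 ± 0.22, within the upper band. TFEB, a master activator of lysosomal genes, went the other way at -0.61 ± 0.075 (0.3 on the B-cell scale). No member of the proteasome or lysosome lists was called in the table of EPZ-6438 or MS8815N, and 1 member of the NRF2 list was called with MS8815N. Of all genes 0.0328% were called with EPZ-6438 and 0.533% with MS8815N, so few calls were not particular to these lists.

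Enzymes of cholesterol synthesis were lower in the deposited scaling, from the first steps to the last. In the mevalonate part of the pathway 7 of 9 genes fell and none rose (median -0.79, and 0.12 on the B-cell scale), and from squalene to cholesterol 12 of 12 fell (median -0.67, and 0.23 on the B-cell scale). Of the latter 7 were called lower without either DMSO library. HMGCS1, the synthase that opens the pathway, stood at 5539 and 5683 with DMSO and 1838 and 2090.3 with MS8815 (-1.52 ± 0.071, adjusted p = 3.28e-05), and IDI1 at 5326 and 5318 with DMSO and 2246 and 2065 with MS8815 (-1.3 ± 0.057, adjusted p = 3e-05). Both MS8815 libraries were below both DMSO libraries for these genes. HMGCS1, IDI1 and the squalene epoxidase SQLE (-1.3 ± 0.055) were also called lower on the B-cell scale, at -0.61, -0.4 and -0.39, whereas FDFT1 (-1.12 ± 0.095 as deposited, -0.22 scaled) and TM7SF2 (-1.16 ± 0.11 as deposited, -0.25 scaled) lost their calls. FDPS was at -0.8 ± 0.052 and turned positive on that scale, at 0.1.

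Genes of sterol control and uptake, which SREBP2 drives together with the synthesis genes, are described next. The SREBP2 gene SREBF2 stood at 8965 and 9039 with DMSO and 5748 and 6173 with MS8815 (-0.6 ± 0.046, and 0.31 on the B-cell scale). NPC1, the lysosomal cholesterol exporter, was at 0.58 ± 0.099. INSIG1, the sterol sensor that holds SREBP back, was at -0.23 ± 0.058 and was not called after quantile normalisation (-0.03). In all, 3 of 11 genes rose and 3 fell, shares near the 24.5% and 22.4% of all genes. By level these shares were 28.2% and 20.1% from 100 to under 1000, and 13.1% and 58.0% from 1000 to under 10000. The list was not matched for level. Its median was 0.11. It fell to 0.030 on leaving out DMSO replicate 1 and to 0.068 on leaving out MS8815 replicate 1, and was 0.184 with DMSO replicate 2 left out. Without either DMSO library 2 were called higher and 1 lower, and without MS8815 replicate 2 these were 3 and 1. Of 8 genes of sterol efflux and its LXR receptors 6 rose and none fell (median 0.88, with none in the upper band), among them ABCA1 at 0.51 ± 0.097 and MYLIP, a ubiquitin ligase induced by LXR, at 1.25 ± 0.16. None of the 8 was called higher without either DMSO library.

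Of 16 fatty-acid genes 5 were higher, 4 of them in the upper band, and 4 lower, also near the shares over all genes but not matched for level. The desaturases FADS1 and FADS2 stood at 122 and 121 with DMSO and 1348 and 1114 with MS8815 and at 107 and 102 with DMSO and 1374 and 1178 with MS8815 (3.32 ± 0.13 and 3.59 ± 0.13). ACLY, FASN and SCD, which make and desaturate the main chain, were at -0.67 ± 0.038, -0.5 ± 0.062 and -0.38 ± 0.038 (0.24, 0.4 and 0.52 on the B-cell scale).

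**Figure D4:**
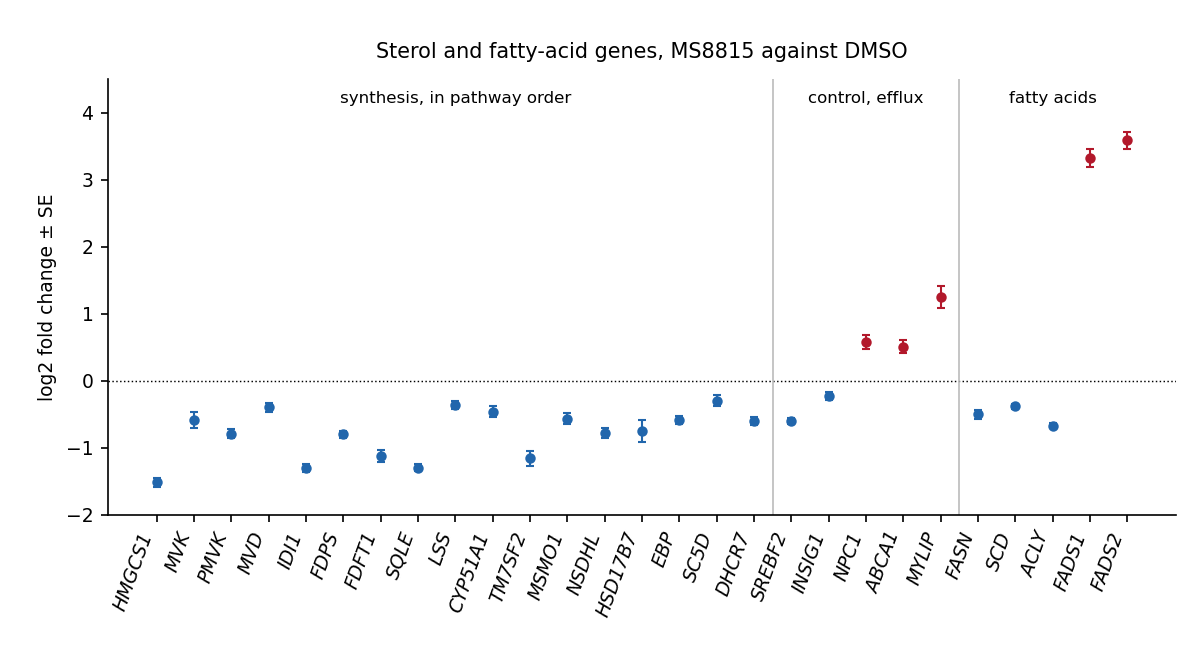
Log2 fold change with its SE (bars), MS8815 against DMSO in the deposited normalisation, for sterol synthesis genes in pathway order, genes of sterol control and efflux, and fatty-acid genes. All synthesis genes drawn lie between -1.52 and -0.30, NPC1, ABCA1 and MYLIP lie above 0, and the scaling to B-cell genes would move the points up by about 0.90, which turns the synthesis genes above -0.90 positive.

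B-cell genes were lower, as deposited, in each of 4 lists. Of 14 pan-B surface and receptor genes 11 fell and none rose (median -1.01), of 18 B-cell transcription factors 13 fell and 3 rose (-0.74), of 17 B-cell receptor kinases and adaptors 12 fell and 2 rose (-0.82), and of 15 germinal-centre effectors 11 fell and 2 rose (-0.80). On the B-cell scale, which is built on 3 of these lists, the medians were -0.11, 0.17, 0.09 and 0.11. In bulk RNA fewer B cells and less of the transcript per cell cannot be told apart. The B-cell identity in the label was borne out by the levels of these genes in all 4 libraries. CD79A, a signalling chain of the B-cell receptor, stood at 19804 and 20714 with DMSO and 10715 and 10868 with MS8815 (-0.91 ± 0.034), and MS4A1, which encodes CD20, at 10460.5 and 10683 with DMSO and 4318 and 4309 with MS8815 (-1.29 ± 0.036, adjusted p = 1.05e-05). CD79B was at -0.84 ± 0.029 (0.065 on the B-cell scale), and FCRLA was at -1.1 ± 0.028.

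Falls differed in size among the B-cell genes. VPREB3, a surrogate light chain homologue, had the largest of them, at 1699.9 and 1779 with DMSO and 360.5 and 382 with MS8815 (-2.22 ± 0.083, adjusted p = 2.57e-05), and remained at -1.32 on the B-cell scale. RGS13, a regulator of chemokine signalling in germinal centres, stood at 5173 and 5187 with DMSO and 1918 and 1874 with MS8815 (-1.45 ± 0.047), IRF8 at 2278 and 2324 with DMSO and 858 and 846 with MS8815 (-1.43 ± 0.063) and IKZF1 at 4760.0 and 4878 with DMSO and 2053 and 2087 with MS8815 (-1.22 ± 0.047). These 3 were also called lower on the B-cell scale, at -0.55, -0.53 and -0.31. Kinases that carry the receptor signal fell by similar amounts, BTK at -1.16 ± 0.051, SYK at -1.03 ± 0.044 and BLK at -1.17 ± 0.056, as did the adaptor PIK3AP1 at -1.38 ± 0.066. BCL6 and PAX5, which define the germinal-centre and B-cell programmes, were at -0.7 ± 0.08 and -0.77 ± 0.2 (0.2 and 0.13 on the B-cell scale), and PAX5 lost its call after quantile normalisation. SERPINA9 was at -0.8 ± 0.046 (0.11 on the B-cell scale), MME, which encodes CD10, at -1.28 ± 0.15, ELL3 at -1.18 ± 0.056 and P2RY8 at -1.07 ± 0.061.

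A few members of these lists rose against the majority. PRKCB, the protein kinase C of the receptor pathway, stood at 11.7 and 7.3 with DMSO and 147 and 210.1 with MS8815 (4.1 ± 0.37), VAV2 at 61.6 and 59.9 with DMSO and 441 and 307 with MS8815 (2.58 ± 0.22) and MEF2C at 6.51 and 6.99 with DMSO and 78.3 and 60.5 with MS8815 (3.17 ± 0.39). PRKCB and MEF2C were low with DMSO. Among B-cell transcription factors 1 was called higher without either DMSO library, and among germinal-centre effectors 1 without DMSO replicate 1.

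The apoptosis regulators of the BCL2 family moved in both directions, with 7 of 16 higher, 2 of the list in the upper band, and 4 lower (median 0.26, and 0.136 without MS8815 replicate 2). BCL2L1, which encodes the survival protein BCL-XL, stood at 826 and 879 with DMSO and 3282 and 3462 with MS8815 (1.98 ± 0.067, adjusted p = 1.83e-05), and BBC3, the death activator PUMA, at 102 and 87.4 with DMSO and 359.6 and 347 with MS8815 (1.89 ± 0.16). BCL2, MCL1 and BCL2L11 (BIM) were at -0.6 ± 0.039, -0.48 ± 0.046 and -0.74 ± 0.079 as deposited and at 0.31, 0.42 and 0.16 on the B-cell scale. TNFRSF10B, a death receptor for TRAIL, was at 1.65 ± 0.097.

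Antigen presentation genes of class I rose, and those of class II split. For class I, 10 of 14 genes rose and 3 fell (median 0.86), with 3 in the upper band. HLA-B stood at 240.3 and 214 with DMSO and 2958 and 3173 with MS8815 (3.75 ± 0.095, adjusted p = 8.06e-06), HLA-E at 211 and 211 with DMSO and 1890.2 and 1947 with MS8815 (3.18 ± 0.086) and B2M, the shared light chain, at 4078 and 4286 with DMSO and 8888 and 9104 with MS8815 (1.11 ± 0.043). HLA-C moved less, at 1.03 ± 0.056. These genes are similar in sequence and highly polymorphic, so the division of reads between them is uncertain. PDIA3, which loads peptides in the endoplasmic reticulum, was at -0.77 ± 0.042 (0.14 on the B-cell scale). In class II, 7 of 17 genes rose and 5 fell (median 0.22, but -0.26 after quantile normalisation and 0.68 without MS8815 replicate 2). Without either DMSO library 3 were called higher and 2 lower, and without MS8815 replicate 1 these were 4 and 5. HLA-DRA stood at 51.4 and 53.1 with DMSO and 505 and 465 with MS8815 (3.19 ± 0.16), HLA-DPB1 at 13.8 and 6.5 with DMSO and 105 and 88.1 with MS8815 (3.2 ± 0.44) and the class II transactivator CIITA at 53.3 and 14.4 with DMSO and 125 and 153 with MS8815 (2.27 ± 0.59), with CIITA not called without either MS8815 library. CD74, the invariant chain, fell at 8055 and 8337 with DMSO and 4177 and 4211 with MS8815 (-0.97 ± 0.04) and was at -0.061 and not called on the B-cell scale.

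Interferon-stimulated genes were higher, with 23 of 32 rising and 2 falling (median 2.59) and 7 in the upper band. IFIT3 stood at 43.1 and 49.3 with DMSO and 809 and 725 with MS8815 (4.03 ± 0.16), IFIT1 at 11.9 and 11 with DMSO and 345 and 335 with MS8815 (4.78 ± 0.24) and IFITM3 at 32.7 and 46.9 with DMSO and 779.8 and 889.9 with MS8815 (4.38 ± 0.22). All 3 were low in the DMSO libraries. Without DMSO replicate 1 the list had 12 genes higher, and without DMSO replicate 2 it had 13, with none lower in either case. BST2, a restriction factor, was at -0.55 ± 0.088 (0.36 on the B-cell scale), and the RNA sensor IFIH1 at -1.09 ± 0.31.

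Respiratory chain genes were higher where the mitochondrial genome encodes them and, as deposited but not on the B-cell scale, lower where the nuclear genome does. All 13 mitochondrially encoded protein genes rose (median 1.65, with none in the upper band), though after quantile normalisation MT-CO1 turned to -0.76. MT-ND2 and MT-ND1, subunits of complex I, stood at 12052 and 12637 with DMSO and 78272 and 81465 with MS8815 and at 12447 and 13033 with DMSO and 57378 and 59065 with MS8815 (2.69 ± 0.034 and 2.19 ± 0.033), while MT-CO1, a subunit of complex IV, stood at 94537 and 97799 with DMSO and 184723 and 187828 with MS8815 (0.95 ± 0.022). The change thus ranged from 0.91 to 2.69 within 1 genome. The mitochondrial ribosomal RNAs of the same genome changed more, MT-RNR1 by 4.95 ± 0.03 and MT-RNR2 by 3.9 ± 0.018. Of 25 nuclear-encoded subunits 22 fell and none rose (median -0.45, and 0.46 on the B-cell scale). Without DMSO replicate 2 the falls numbered 14. ATP5B, the catalytic subunit of the ATP synthase, stood at 31972 and 31945 with DMSO and 16482 and 16839.6 with MS8815 (-0.94 ± 0.026) and was not called on the B-cell scale (-0.035), and ATP5A1 was at -0.71 ± 0.036 (0.19 on the B-cell scale).

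Growth genes were lower as deposited and higher on the B-cell scale. Falls were common among abundant genes of any kind, at 58.0% of genes from 1000 to under 10000 and 69.6% of genes from 10000 upward. The counts that follow were not matched for level. Of 44 large-subunit ribosomal protein genes 35 fell (median -0.22), and of 32 small-subunit genes 17 fell (-0.16), with none higher. Their medians were 0.01 and 0.02 after quantile normalisation and 0.69 and 0.75 on the B-cell scale. The falls numbered 23 and 10 without DMSO replicate 2, and 22 and 8 without MS8815 replicate 2. RPL4 was at -0.41 ± 0.022 and RPS26 at -0.77 ± 0.042 (0.49 and 0.13 on the B-cell scale). Of 20 genes of MYC and ribosome biogenesis 18 fell and none rose (median -0.55, and 0.36 on the B-cell scale), with NCL, nucleolin, at -0.88 ± 0.028 (0.026 on the B-cell scale). In DNA replication 22 of 25 genes fell and none rose (-0.61, and 0.29 on the B-cell scale), with PCNA, the sliding clamp, at 11443 and 11662 with DMSO and 6590.4 and 6974 with MS8815 (-0.77 ± 0.041, and 0.14 on the B-cell scale). In mitosis 19 of 23 fell and 1 rose (-0.59, and 0.31 on the B-cell scale). The mitotic kinase gene PLK1 stood at 7751 and 7688 with DMSO and 3422 and 3562 with MS8815 (-1.14 ± 0.042) and was still lower on the B-cell scale (-0.24), CDK1 was at -0.95 ± 0.042, and CCNB1, its cyclin, was the gene that rose, at 0.2 ± 0.062, and was not called without either DMSO library or without MS8815 replicate 2. Replication-dependent histone genes, whose transcripts lack a poly(A) tail, had 11 of 19 members higher and none lower (median 1.01, with 2 in the upper band), with HIST1H1C at 2.07 ± 0.16, and 3 were called higher without either DMSO library.

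Immediate early genes and hypoxia targets rose. Of 18 AP-1 and other immediate early genes 16 were higher and none lower (median 2.66), with 5 in the upper band. JUN stood at 366 and 397 with DMSO and 2936 and 3238 with MS8815 (3.01 ± 0.087), FOSL1 at 172 and 169 with DMSO and 2944 and 2954 with MS8815 (4.11 ± 0.082), FOS at 7.1 and 4.99 with DMSO and 103 and 112 with MS8815 (3.96 ± 0.37) and EGR1 at 42.1 and 37.5 with DMSO and 339 and 293 with MS8815 (2.95 ± 0.2). Of 12 KLF factors 10 rose and 1 fell (median 1.5, with 4 in the upper band, and 6 called higher without either DMSO library), with KLF6 at 1181 and 995 with DMSO and 2618 and 2632 with MS8815 (1.27 ± 0.092) and KLF4 at 7.88 and 13 with DMSO and 236 and 181 with MS8815 (4.22 ± 0.36). Of 24 targets of hypoxia-inducible factor, which VHL restrains, 19 rose and 1 fell (median 2.12), with 5 in the upper band. VEGFA, the angiogenic growth factor, stood at 39.3 and 23.7 with DMSO and 684 and 756 with MS8815 (4.51 ± 0.27), NDRG1 at 214 and 271 with DMSO and 2792 and 2603 with MS8815 (3.48 ± 0.13), HIF1A itself at 1336 and 1274 with DMSO and 3769 and 3565 with MS8815 (1.49 ± 0.061) and the glucose transporter SLC2A1 at 2611 and 2693 with DMSO and 4678 and 4509 with MS8815 (0.79 ± 0.049). Glycolytic enzymes, also hypoxia targets, were mixed, with 5 of 19 higher and 9 lower (median -0.06, 0.84 on the B-cell scale and -0.105 without MS8815 replicate 1), and 4 and 5 without DMSO replicate 1. PKM stood at 19618 and 19797 with DMSO and 35549 and 35594 with MS8815 (0.85 ± 0.024) and ENO1 at 0.28 ± 0.025, while TPI1 was at -0.43 ± 0.028 (0.47 on the B-cell scale). Genes of adherent cells moved in the same libraries, with the integrin gene ITGA3 at 4.11 ± 0.1 and CYR61 at 4.1 ± 0.09, and their part in these lists was not tested.

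U2AF1, PLD4, HTR3A and MUM1 were, with VPREB3, among the 10 largest falls in the upper 50% of genes by level. U2AF1, a splicing factor, stood at 568 and 724 with DMSO and 62.5 and 84.9 with MS8815 (-3.12 ± 0.22), and a near-identical copy of the gene makes the assignment of its reads uncertain. PLD4, an endolysosomal nuclease, stood at 439 and 408 with DMSO and 43.1 and 72.9 with MS8815 (-2.89 ± 0.27, adjusted p = 0.00021), HTR3A, a serotonin-gated channel, at 1389 and 1379 with DMSO and 368 and 306 with MS8815 (-2.04 ± 0.11) and MUM1 at 1093 and 1105 with DMSO and 300.0 and 239 with MS8815 (-2.03 ± 0.13). All 4 remained lower on the B-cell scale, at -2.22, -2.0, -1.14 and -1.13. Only 203 genes were called lower on that scale, against 12640 higher. Many of the 203 were low with DMSO and at 0 in both MS8815 libraries. A count of 0 stays at 0 under this scaling, so the scaling could not turn their direction. The part of the lower depth of the MS8815 libraries in these zeros was not tested. Among the most abundant genes that fell at least 2-fold, PTMA, a small acidic nuclear protein, stood at 79584 and 84019.6 with DMSO and 37582 and 36885 with MS8815 (-1.14 ± 0.031), the immunoglobulin kappa constant gene IGKC at 30955 and 32595 with DMSO and 14283 and 14639 with MS8815 (-1.14 ± 0.035) and the actin regulator CORO1A at 23139 and 22879.9 with DMSO and 11130.2 and 11437 with MS8815 (-1.03 ± 0.03).

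MS8815 differed widely from both other compounds when all 8 libraries were joined through the shared DMSO libraries. Over 17457 genes limma called 8881 (50.9%) for MS8815 minus EPZ-6438 and 8869 (50.8%) for MS8815 minus MS8815N, the 2 pairs that were compared. In its own table EPZ-6438 had 6 of 18320 genes called against DMSO (0.0328%) and MS8815N 98 of 18398 (0.533%). These comparisons share the DMSO libraries, so each compound's values are set side by side without a test of their likeness. The inducible heat-shock gene HSPA1B was at -0.065 with EPZ-6438 and 0.034 with MS8815N, against 2.4 with MS8815, and MS8815 exceeded MS8815N by 2.37 (95% interval 2.27 to 2.46, limma adjusted p = 9.9e-09). PSMC4 was at 0.0015 and -0.039 in these compounds, and MS8815 exceeded MS8815N by 0.79 (95% interval 0.7 to 0.88, limma adjusted p = 1.13e-06). SQSTM1 was at -0.021 and 0.016, with a difference of 2.0 (95% interval 1.91 to 2.09, limma adjusted p = 1.33e-08). CTSD was at 0.16 and 0.19, with a difference of 2.51 (95% interval 2.41 to 2.62, limma adjusted p = 1.08e-08). Against EPZ-6438 the difference for HSPA1B was 2.46 (95% interval 2.37 to 2.56, limma adjusted p = 8.16e-09). EZH2 was at 0.019 and -0.029, its difference of MS8815 minus EPZ-6438 was -0.29 (95% interval -0.4 to -0.18, limma adjusted p = 0.00106), and the difference of MS8815 minus MS8815N was -0.24 (95% interval -0.35 to -0.13, limma adjusted p = 0.00291). HMGCS1 was at -0.14 and -0.31, and the difference was -1.21 (95% interval -1.35 to -1.06, limma adjusted p = 1.58e-06). In the integrated stress response 9 of 22 tested genes were called with MS8815N and none of 22 with EPZ-6438, and ASNS, at 0.69 with MS8815N, had a difference of MS8815 minus MS8815N of -0.8 (95% interval -1.01 to -0.59, limma adjusted p = 0.000137). KRT8 was at 0.3 with EPZ-6438 and 0.44 with MS8815N, and RN7SL1 at 0.33 and 0.5. The keratin list as a whole had medians of 0.40 over 8 genes and 0.53 over 9 in those compounds, with no gene called.

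**Figure D5:**
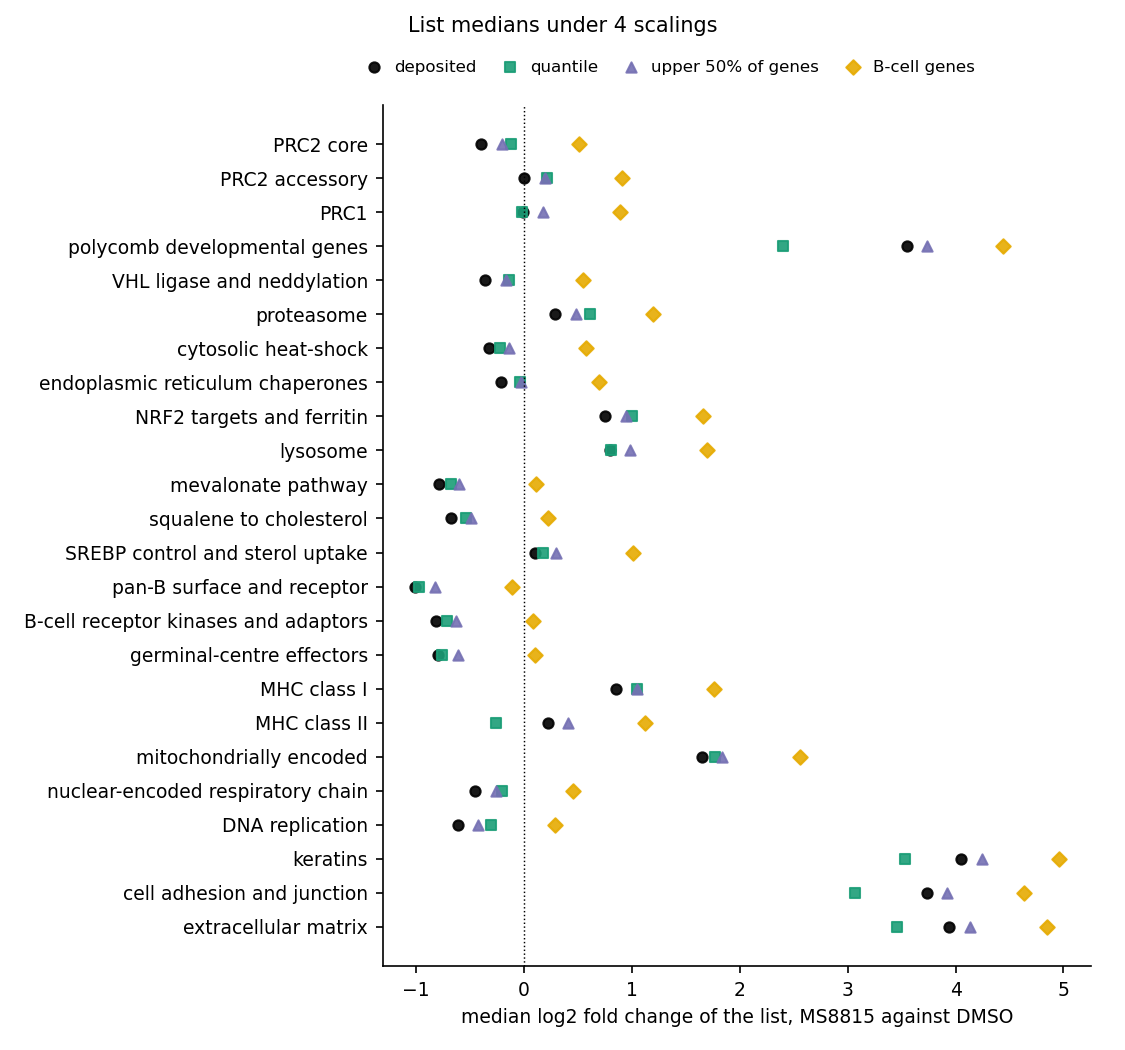
Median log2 fold change of 24 gene lists, MS8815 against DMSO, under 4 scalings (deposited, quantile, upper 50% of genes and B-cell genes). Proteasome, NRF2, lysosome, MHC class I, mitochondrially encoded and adherent-cell lists are above 0 under all 4, cholesterol, replication and nuclear respiratory lists change sign on the B-cell scale, and the MHC class II list changes sign under quantile normalisation.

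The 24 lists drawn can be ordered by how they fared over these 4 scalings. Those with a median above 0 under all 4 were the proteasome, NRF2, lysosome, class I, mitochondrially encoded, polycomb developmental, sterol control, PRC2 accessory and adherent-cell lists. The pan-B list alone of the 24 drawn had a median below 0 under all 4. Pan-B genes are among those that set the B-cell scale, so the sign there only places them against the other genes of that set. The same scale raises every MS8815 count above 0. A list with a median above 0 as deposited was therefore bound to be above 0 there, which adds no separate test. The other lists drawn changed sign under at least 1 of the 4. Of those above 0, the PRC2 accessory median turned negative without DMSO replicate 1 or MS8815 replicate 2.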

How the data were processed

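RNA was measured by sequencing in 2 MS8815 and 2 DMSO libraries. Reads were handled with STAR 2.4.2 and Salmon on GRCh38, per the submitters' processing notes, which give no order or role. The deposited values are variance-stabilised values, per the deposited tables' names and their values, 1 table per compound with the same DMSO libraries in each. At the median normalised read count of a gene, 189.9, a doubling spans 0.061 deposited units, where a log2 scale would give 1. They were turned back into normalised read counts by inverting that transform. The deposited scaling was kept, so a composition shift between libraries enters every fold change. The value of 1 read in each library was estimated from the spacing of low counts, and 49.6% to 59.8% of low values lay on its multiples in the 4 libraries, so the depths are estimates. With 2 libraries a group the fit had 2 residual degrees of freedom.

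The main test was limma 3.58.1 (R 4.3.3) with a trend on the deposited variance-stabilised values, two-sided, with Benjamini-Hochberg adjustment over 18744 genes. Fold changes and SE came from limma on log2(count + 1), so they are on another scale than the p-values printed beside them. A gene was called at an adjusted p under 0.05. On simulated data for MS8815 against DMSO over 18744 genes, 0 of 50 genes changed 1.25-fold, 1 of 50 changed 1.5-fold, 19 of 50 changed 2-fold and 45 of 50 changed 4-fold were recovered. Only these genes were changed in the simulation, with the same dispersion for every gene, whereas 46.9% of genes were called in the data. The Benjamini-Hochberg adjustment is stricter where few genes change, so this recovery does not carry over to the data. MS8815 was set against the other compounds in a joined fit of 8 libraries. Coordinates are from GENCODE 29, and promoters from RefSeq. Figures were drawn with matplotlib 3.10.9.

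The comparison and the gene lists were chosen with earlier results of these data known. Named genes were anchors of each list, up to 10 of the largest rises and falls, up to 4 members per list and direction with the smallest p, up to 6 of the most abundant changed genes each way, and up to 3 members against a list's majority. HSPB1, HSPB8, DNAJA1, CHORDC1, HSP90AA1 and PSMB10 were added after their values were seen. Alternatives were 3 other scalings, a filter on low genes, 2 other limma settings, a replicate block, other pseudocounts, each library left out and the joined fit. A few named genes are left unreported.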

Additional observations from a re-analysis of the deposited data

How the results depend on the processing

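The count of 8782 changed genes lay between 3583 and 8932 when each library was left out in turn, with 3657 without DMSO replicate 1 and 3583 without DMSO replicate 2. For changes of at least 2-fold the count was 4059, between 1919 and 4538 with a library left out, 6912 on the B-cell scale and 1065 with the lower 50% of genes removed. Where 1 library was left out, its group's lone library was assumed to vary like the other group's. Without DMSO replicate 1, 27 of 177 named genes lost their call, and without DMSO replicate 2 also 27, among them EZH2, SUZ12, EED, PAX5, PRDM1 and EPCAM. The cause was not tested in any of these cases. The replicate numbers did not pair the libraries (correlation of deviations -0.03), and with the replicate block 8694 genes were changed and all 177 named genes kept direction and call. Among the 177 named genes, 38 that were called as deposited turned direction on the B-cell scale, with log2 fold changes of EZH2 0.64, SUZ12 0.70, RBBP4 0.18, RBBP7 0.39, MTF2 0.45, AEBP2 0.41, KDM2B 0.16, CDKN2C 0.51, CUL2 0.41, CAND1 0.18, PSME2 0.58, HSPA8 0.075, DNAJA1 0.21, CHORDC1 0.24, HSP90AB1 0.60, PDIA6 0.22, TFEB 0.30, FDPS 0.10, SREBF2 0.31, INSIG1 0.67, FASN 0.40, SCD 0.52, ACLY 0.24, CD79B 0.065, PAX5 0.13, BCL6 0.20, SERPINA9 0.11, BCL2 0.31, MCL1 0.42, BCL2L11 0.16, PDIA3 0.14, BST2 0.36, TPI1 0.47, ATP5A1 0.19, RPL4 0.49, RPS26 0.13, NCL 0.026 and PCNA 0.14. A further 5 named genes, not called as deposited, also changed sign there. On the same scale the medians turned for 16 of 42 lists whose median and majority of calls shared a direction as deposited: PRC2 core 0.51, VHL ligase and neddylation 0.55, cytosolic heat-shock 0.58, endoplasmic reticulum chaperones 0.69, mevalonate pathway 0.12, squalene to cholesterol 0.23, B-cell transcription factors 0.17, B-cell receptor kinases and adaptors 0.089, germinal-centre effectors 0.11, glycolysis 0.84, nuclear-encoded respiratory chain 0.46, ribosomal proteins of the large subunit 0.69, ribosomal proteins of the small subunit 0.75, MYC and ribosome biogenesis 0.36, DNA replication 0.29 and mitosis 0.31. The PRC1 and immunoproteasome medians, near 0 as deposited and without such a majority, changed sign too, each to 0.89. After quantile normalisation SUZ12 was at 0.00075, MT-CO1 at -0.76 and the medians of MHC class II at -0.26, glycolysis at 0.12 and the large and small ribosomal subunits at 0.015 and 0.019. On the upper 50% scale glycolysis was at 0.13 and the small ribosomal subunit at 0.031. With the lower 50% of genes removed the medians of PRC2 accessory (-0.084), integrated stress response (-0.040), fatty acid synthesis (-0.048) and MHC class II (-0.52) turned. The PRC2 accessory median was -0.051 when DMSO replicate 1 was left out and -0.098 when MS8815 replicate 2 was.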

Other observations

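Lists outside the comparisons above were mixed as deposited, and 24.5% of all genes were higher and 22.4% lower. Of 19 NF-kB genes 4 were higher and 8 lower (median log2 fold change -0.24, and 0.67 on the B-cell scale). Of 20 p53 target genes 5 were higher and 9 lower (median -0.26, and 0.65 on the B-cell scale). Markers of other cell types were mostly not in the table or few. Of 5 tested fibroblast markers 3 were higher and none lower, of 6 breast markers 4 and none, of 4 prostate markers 3 and 1, of 5 kidney markers 2 and none, of 5 melanocyte markers 3 and none, of 5 neuronal markers 2 and 1, and of 6 monocyte and macrophage markers 3 and none. Of 3 squamous and basal markers 2 were higher and 1 lower, of 3 endothelial markers 1 and none, of 2 hepatocyte markers 2 and none, and of 7 T and NK cell markers 1 and 1. None of the 2 intestinal markers, the 1 lung marker or the 1 erythroid and megakaryocyte marker was called by limma. In the plasma cell list 3 of 9 genes were higher and 3 lower (median 0.45, but -0.22 after quantile normalisation).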
